A study of Mus musculus with 9 samples.

Results

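The genes described here are the apolipoproteins Apoa1, Apoa2, Apoa4, Apob, Apoc1, Apoc3, Apoe, Apoh and Apom together with Mttp, the microsomal triglyceride transfer protein. They were chosen by gene symbol among genes annotated as protein-coding, and all 10 were found among the 56748 genes of the deposited tables. The libraries came from Hepa1-6, a mouse hepatoma cell line, and fell into 3 groups of 3. Control cells were untreated according to the labels and vehicle-treated according to the study's methods. The other groups were exposed for 2 days to 37 µg/mL lefamulin or 37 µg/mL tiamulin, pleuromutilin antibiotics that bind the bacterial ribosome. All groups shared the same medium, which contained fetal bovine serum and penicillin-streptomycin. RNA-Seq was run on each library to find which transcripts the drugs changed.

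Apolipoproteins are the protein part of lipoproteins, the particles in which the liver and intestine send triglyceride and cholesterol into the blood. Apob is the non-exchangeable scaffold of very low-density lipoprotein, and Mttp loads lipid onto it in the endoplasmic reticulum. Exchangeable apolipoproteins such as Apoe, the A class and the C class move between particles and act as receptor ligands, enzyme cofactors or enzyme inhibitors.

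Total counts on genes lay between 15568887 and 18008105 per library, so that 3 counts, used here as the floor, stood for 0.167 to 0.193 CPM (counts per library scaled to the usual fixed library size). No library was a copy of another. The chi-square per degree of freedom between libraries of a group was 2.88 to 7.57, except for the pairs with tiamulin 2, at 18.1 and 20.6, so results that turn on tiamulin 2 are also given without it. The labels do not say whether the libraries of a group came from separate cultures, so p-values measure the spread between these libraries, which may be technical. Among 13 hepatocyte markers, 9 had a mean FPKM over 1, with Krt18 at 822, Trf at 181 and Alb at 176 FPKM, whereas Ttr, Apoa1, Ahsg and Serpinc1 were below 0.2 FPKM. Of 7 blood cell markers only Cd68 exceeded 1 FPKM, and Adgre1 and Cd3e had no count in any library. Of 4 endothelial markers none exceeded 1 FPKM. Of 6 fibroblast markers only Dcn did, at a mean of 214 FPKM, with Col1a2 and Col3a1 below 0.002 FPKM. Of 5 cholangiocyte markers 3 exceeded 1 FPKM, with Sox9 at 31.1 FPKM, and of 5 intestinal markers only Vil1 did, at 54.8 FPKM.

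The promoter sequences of Apoe and Apob are shown because these were the 2 genes of the group that fell under tiamulin. RefSeq promoter windows of GRCm38.p6 were matched by symbol for 8 of the 10 genes. Apoc1 and Apoc3 had none. The windows hold 250 bases upstream of a RefSeq start, and for Apob only the 221 bases before its first exon in GENCODE M21 are printed. For Apoe, which has 3 such windows, the one farthest upstream is printed. The Mttp window holds annotated exons of Mttp and of its head-to-head neighbour Trmt10a and is not printed. Both sequences run 5′ to 3′ on the strand of the gene, the minus strand for Apoe at chr7:19699189-19699438 and the plus strand for Apob at chr12:7977427-7977647. Capitals mark the TATA box of Apob.
Apoe: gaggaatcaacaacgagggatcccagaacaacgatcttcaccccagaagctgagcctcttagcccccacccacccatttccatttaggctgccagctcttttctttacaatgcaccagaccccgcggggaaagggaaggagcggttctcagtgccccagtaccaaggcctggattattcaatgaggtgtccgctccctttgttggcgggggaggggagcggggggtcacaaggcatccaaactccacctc
Apob: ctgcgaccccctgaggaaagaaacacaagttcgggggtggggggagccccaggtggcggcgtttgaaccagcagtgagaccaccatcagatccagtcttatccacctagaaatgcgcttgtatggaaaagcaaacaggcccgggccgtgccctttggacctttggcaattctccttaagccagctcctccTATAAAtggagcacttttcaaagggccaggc
Exact matches of 5 motifs were sought on both strands, namely the TATA box (TATAAA), the CCAAT box (CCAAT), the GC box that Sp1 binds (GGGCGG), the nuclear receptor half-site (AGGTCA) and an element of the kind bound by HNF4 (CAAAGTCCA). None of these motifs contains another. The Apob window held 1 match, TATAAA, which began 31 bases upstream of the first exon and 60 bases upstream of the RefSeq start. The letters TATAAA occur in 12.4% of all 32851 windows of 250 bases. The printed Apoe window held no match to any of the 5, which says only that these letters are not in it. Another Apoe window, at chr7:19698622-19698871, held a TATAAA match on each strand, the nearer of them 96 bases upstream of its start. The CCAAT box occurs in 33.8% of windows, the GC box in 32.7%, the half-site in 14% and the HNF4-type element in 0.384%.

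The 10 genes differed widely in level. On the FPKM scale, which corrects for gene length and allows genes to be compared, Apoe stood far above the rest, at 872 ± 72.8 FPKM in control, 754 ± 34.4 under lefamulin and 650.3 ± 76.8 under tiamulin (mean ± SD, n = 3 in every group). It ranked between 14 and 34 among 21970 protein-coding genes and took 0.127% to 0.199% of all counts in a library. Apob followed at 8.92 ± 0.491, 8.74 ± 0.917 and 6.80 ± 0.166 FPKM in control, lefamulin and tiamulin (rank 5002 to 6287). Mttp was next by rank under both drugs, at 3.39 ± 0.222, 3.83 ± 0.131 and 3.66 ± 0.144 FPKM (rank 7718 to 8156). Apoa2, an apolipoprotein of high-density lipoprotein, had 3.43 ± 1.07, 2.00 ± 1.23 and 2.57 ± 0.802 FPKM, and its control libraries, from 2.25 to 4.32 FPKM, spanned those of Mttp, from 3.22 to 3.64. Apoc1, an exchangeable inhibitor of lipoprotein uptake and lipolysis, had 1.2001 ± 0.199, 1.21 ± 0.101 and 0.758 ± 0.0987 FPKM.

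The remaining 5 genes were at or near the detection limit. Apom, the carrier of sphingosine 1-phosphate on high-density lipoprotein, had between 1 and 13 counts in a library, and Apoa1, the main protein of high-density lipoprotein and the acceptor of cholesterol exported by Abca1, between 1 and 6. Their ranges overlapped in control, at 0.227 to 0.712 FPKM for Apom and 0.139 to 0.269 for Apoa1. Apoh, a phospholipid-binding plasma glycoprotein, had 3 counts in control 1 and 0 in the other 8 libraries. No library held a count of Apoc3, an inhibitor of lipoprotein lipase, or of Apoa4, an apolipoprotein of intestine and liver. Against the floor of 3 counts over the 9 libraries, Apoc3 and Apoa4 lay below 0.0199 CPM. The floor covers counting error only. In bulk libraries, fewer cells that express a gene and less RNA per cell cannot be told apart.

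**Figure D1:**
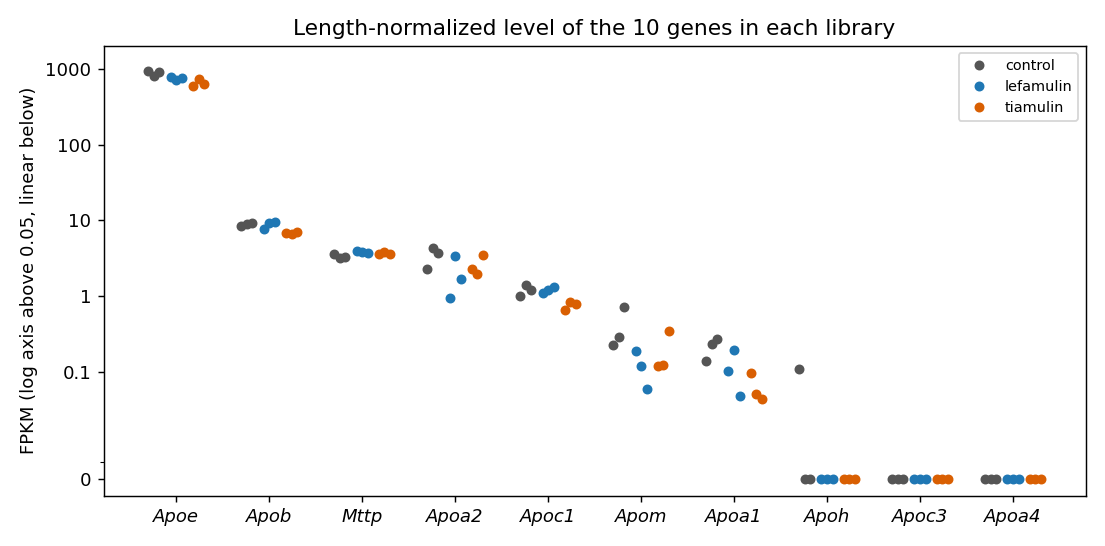
FPKM of the 10 genes (vertical axis, logarithmic above 0.05) in each of the 9 libraries, coloured by group, with genes ordered by level. Apoe lies between 590 and 929 FPKM in every library, Apob between 6.62 and 9.38, and Apoc3 and Apoa4 at 0 throughout.

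Counts were tested in a single fit of the 9 libraries, in which 5 of the 10 genes, Apoa2, Apob, Apoc1, Apoe and Mttp, passed the filter on low counts and entered the 14510 genes tested. A gene was called when its p-value from edgeR's quasi-likelihood test, adjusted by the Benjamini-Hochberg method over all genes tested, was below 0.05, and was a DEG when its absolute log2(fold change) also exceeded 1. None of the 5 was a DEG in any comparison. DEGs made up 1.51% of tested genes under lefamulin, 1.78% under tiamulin and 0.227% between the drugs. Where libraries of compared groups are said not to overlap, the share of all tested genes that separate in this way was not counted.

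Under tiamulin the transcripts of Apoe and Apob fell to 74.5% and 76.2% of their control levels. These were 2 calls among the 5 tested genes, both lower, where 16.4% of all tested genes were called, 9.08% higher and 7.34% lower. The median log2(fold change) of the 5 was -0.41, against 0.0034 over all tested genes. This median is the estimate for Apoa2, which did not pass the test. It ranged from -0.43 without control 1 to -0.36 without control 3, and was -0.53 over 8 genes with no filter on low counts.

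Apoe, the ligand through which remnant particles are taken up by the liver, had 1995, 1696 and 1930 CPM in controls 1, 2 and 3, and 1272, 1574 and 1344 CPM in tiamulin 1, 2 and 3. Every tiamulin library lay below every control library. The fitted log2(fold change) was -0.42 (SE 0.0779, adjusted p = 0.00182, edgeR), and the 95% interval of the treated level ran from 66.4% to 83.7% of control. Tiamulin 2 was the highest of its group, and without it the log2(fold change) was -0.52 (adjusted p = 1.86e-04).

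Apob had 117, 126 and 131 CPM in the control libraries and 95.7, 92.2 and 97.6 CPM in the tiamulin libraries. The groups did not overlap, and the tiamulin libraries had an SD of 2.73 CPM, compared with 6.95 in control. The log2(fold change) was -0.39 (SE 0.0755, adjusted p = 0.00256, edgeR), or 76.2% of control (68.2% to 85.3%).

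Mttp did not pass the test. It had 22.7, 20.1 and 20.6 CPM in control and 22.1, 23.7 and 22.6 CPM under tiamulin, with a log2(fold change) of 0.11 and a 95% interval from -0.073 to 0.29 (adjusted p = 0.429, edgeR). The whole interval lay above the estimates for Apoe and Apob. Mttp overlaps Trmt10a on the opposite strand by 1521 bases, and since the strand setting of the counting is not given in the sources used here, some of its reads could belong to Trmt10a, which had 535 to 752 counts per library.

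Apoc1 had 13, 18 and 16 counts in control and 8, 10 and 10 under tiamulin, which did not overlap after normalization (0.751 to 1.05 against 0.487 to 0.625 CPM). Its log2(fold change) of -0.66 (95% interval -1.42 to 0.11, adjusted p = 0.242, edgeR) did not pass at these counts. Apoa2, with 21, 40 and 36 counts in control and 20, 17 and 32 under tiamulin, was spread too widely for its log2(fold change) of -0.41 (-1.27 to 0.45, adjusted p = 0.544) to be told from none. It was -0.21 without control 2, -0.25 without tiamulin 2, -0.64 without control 1 and -0.69 without tiamulin 3.

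The length-normalized ratio of Apoe to Mttp was 257 ± 13.4 in control, 197 ± 9.53 under lefamulin and 177 ± 13.8 under tiamulin, and the libraries of neither drug overlapped those of control. That of Apob to Mttp was 2.64 ± 0.297, 2.29 ± 0.303 and 1.86 ± 0.109, with lefamulin overlapping control. The ratio of Apoe to Apob was 98.2 ± 11.8, 87.2 ± 13.4 and 95.9 ± 13.4, and overlapped in all groups. The ratios were not tested.

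**Figure D2:**
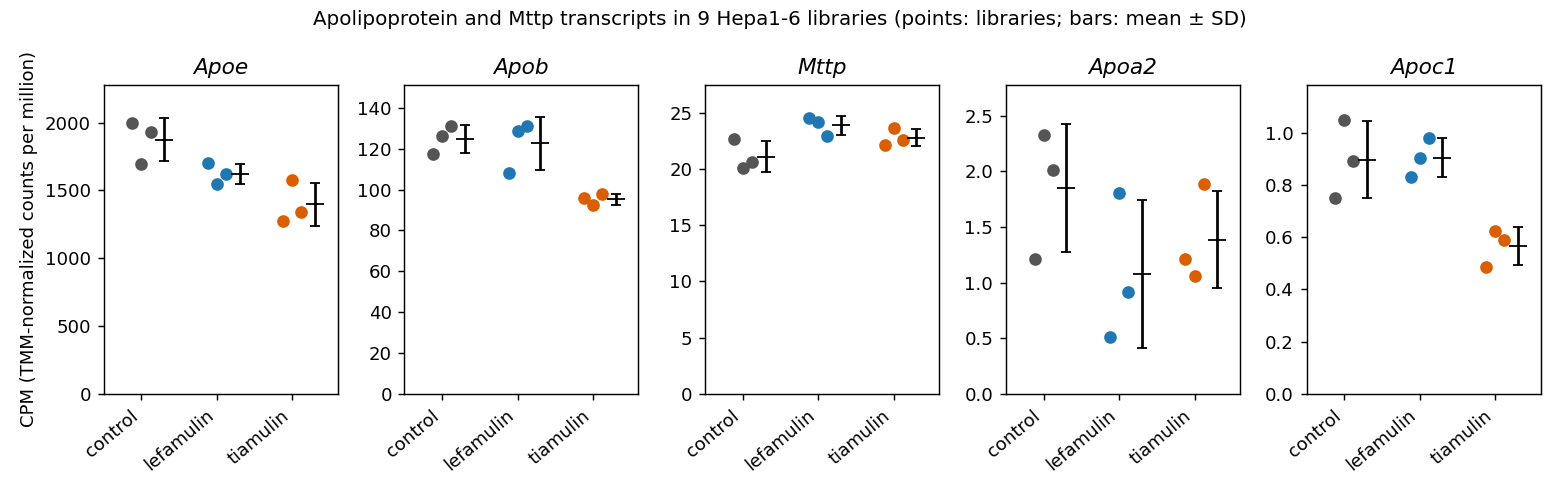
TMM-normalized CPM (vertical axes, starting at 0) of the 5 tested genes in each library, with the mean and SD of the 3 libraries of a group. The tiamulin libraries lie below all control libraries for Apoe, Apob and Apoc1, of which Apoc1 did not pass the test. Tiamulin and control overlap for Mttp and Apoa2. The share of all tested genes without overlap was not counted.

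Lefamulin at the same dose and time called none of the 5 tested genes, where 13.1% of all tested genes were called, 7.09% higher and 6% lower. At an unadjusted p below 0.05 there was 1, Apoe, where 27.2% of all tested genes were, and DESeq2 also called 0. The median log2(fold change) of the 5 was -0.026, against -0.0018 over all tested genes, and it ranged from -0.099 without control 1 to 0.059 without lefamulin 1. With no filter on low counts the median was -0.48 over 8 genes.

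Apoe had 1700, 1550 and 1618 CPM in lefamulin 1, 2 and 3. Lefamulin 1 lay just above control 2, the lowest control library, so the groups overlapped. The log2(fold change) was -0.21 (SE 0.0778, 95% interval -0.37 to -0.041, unadjusted p = 0.0181, adjusted p = 0.0958, edgeR), or 86.6% of control. This side of the threshold depended on the fit. Apoe passed without tiamulin 2, which is in neither group but enters the shared estimate of spread (adjusted p = 0.0238), with no filter on low counts (0.00447), with lefamulin and control fitted alone (0.0179) and with offsets that correct for GC content and length (1.98e-04).

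Apob had 108, 128 and 131 CPM under lefamulin, inside and on both sides of the control range, with a log2(fold change) of -0.026 (-0.19 to 0.13, adjusted p = 0.863). Mttp had 24.6, 24.2 and 23.0 CPM, all above the 3 control libraries, with a log2(fold change) of 0.18 (-0.0050 to 0.36, adjusted p = 0.197) that did not pass the test. Apoc1 counts were 13, 15 and 16, with a log2(fold change) of 0.014 (-0.70 to 0.73, adjusted p = 0.985). Apoa2 varied most, from 8 counts in lefamulin 1 to 30 in lefamulin 2, with a log2(fold change) of -0.77 (-1.65 to 0.12, adjusted p = 0.256) that was -1.36 without lefamulin 2 and -0.43 without lefamulin 1.

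The 5 untested genes gave no difference that these depths could show. Apom had 4, 5 and 13 counts in control, 3, 2 and 1 under lefamulin and 2, 2 and 6 under tiamulin. Lefamulin lay at 29.9% of the control mean in CPM without overlap, but with no filter on low counts its adjusted p was 0.338 (edgeR). Apoa1 had 3, 5 and 6 counts in control, 2, 4 and 1 under lefamulin and 2, 1 and 1 under tiamulin. The tiamulin libraries lay below all controls, and with no filter the adjusted p was 0.506.

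Lefamulin and tiamulin are analogues that share the tricyclic pleuromutilin core and differ in the side chain, and they were compared as 1 pair at matched dose and time. The pair differed for 1 of the 5 tested genes, Apob, where 4.9% of all tested genes were called, 2.85% higher and 2.05% lower under tiamulin. The 3 tiamulin libraries of Apob, at 92.2 to 97.6 CPM, lay below the 3 lefamulin libraries, at 108 to 131. The log2(fold change) of tiamulin against lefamulin was -0.37 (SE 0.0757, 95% interval -0.53 to -0.20, adjusted p = 0.0152, edgeR), or 77.6% of the lefamulin level. The call was lost without lefamulin 2 (adjusted p = 0.0883), without lefamulin 3 (0.0965), and with limma on log2(FPKM + 1) (0.0554) or log2(FPKM + 0.1) (0.0534).

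Apoe had a log2(fold change) of -0.22 between the drugs (95% interval -0.38 to -0.049, adjusted p = 0.126) and tiamulin 2 lay inside the lefamulin range. Without tiamulin 2 it was -0.31 (adjusted p = 0.0151), and it also passed with no filter on low counts (0.00636) and with the GC and length offsets (2.89e-06). The interval for Mttp ran from -0.25 to 0.12 around -0.068 (adjusted p = 0.690, edgeR) and included the estimate for Apoe. For Apoc1 the tiamulin libraries lay below the lefamulin libraries, with a log2(fold change) of -0.67 (-1.44 to 0.10, adjusted p = 0.301), and for Apoa2 the interval ran from -0.56 to 1.28, with an estimate of 0.36 that ranged from 0.027 to 0.95 with single libraries left out. The misses do not show that the drugs act alike on these genes. The comparisons with control share the 3 control libraries and the comparison between drugs shares the treated ones, so they are not independent of each other.

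**Figure D3:**
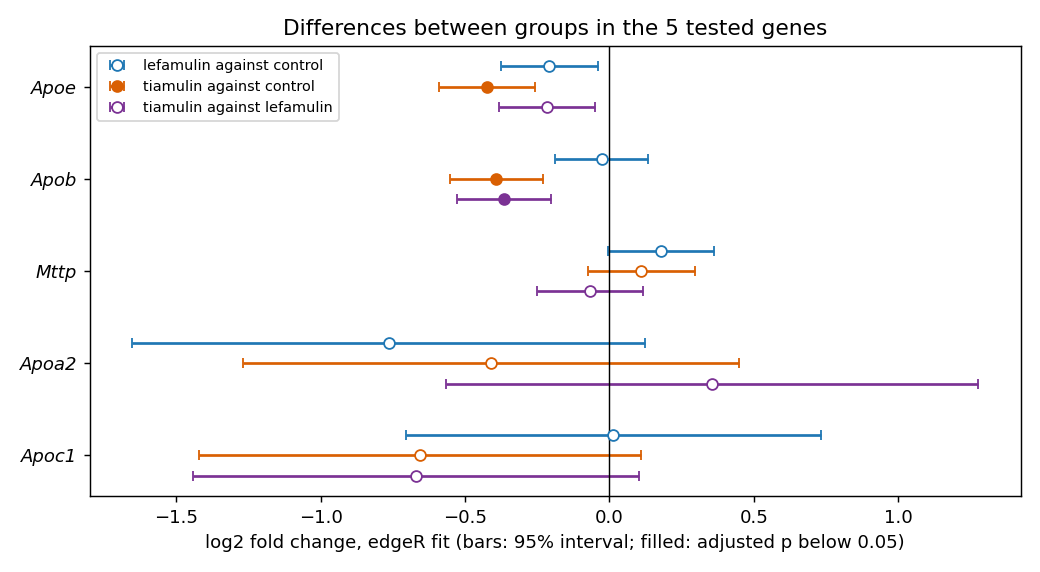
Log2(fold change) (horizontal axis) of the 5 tested genes in the 3 comparisons from the edgeR fit, with 95% intervals, filled where the adjusted p was below 0.05. Apoe and Apob are filled for tiamulin against control and Apob for tiamulin against lefamulin, and the intervals of Apoa2 and Apoc1, counted at 8 to 40 reads per library, are the widest.

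Other genes of lipoprotein biology were followed as lists. Over all tested genes 13.1% were called under lefamulin and 16.4% under tiamulin. Without tiamulin 2 these shares were 24.9% and 23.1%, and with any other single library left out they were 6.69% to 13.1% and 9.85% to 14.4%. Among 14 other apolipoproteins, 7 were tested, and Apoc4, a small apolipoprotein encoded beside Apoe, fell under both drugs. It went from 20.3 ± 1.83 CPM in control to 13.7 ± 1.72 under lefamulin and 10.9 ± 0.870 under tiamulin, with log2(fold change) of -0.57 (adjusted p = 0.00496) and -0.90 (adjusted p = 1.32e-04). Apoc4 overlaps Apoc2l on the same strand, which had 0 to 3 counts per library. Clu, also called apolipoprotein J, an extracellular chaperone, rose under tiamulin (0.26, adjusted p = 0.0224) from 1396 ± 58.5 to 1674 ± 208 CPM, and lost the call without control 2 or 3 (adjusted p up to 0.101). Its value under lefamulin was 0.12 (adjusted p = 0.326), called without tiamulin 2. The list had 0 higher and 1 lower under lefamulin and 1 and 1 under tiamulin, where 13.1% and 16.4% of all tested genes were called, with medians of -0.28 and -0.21. The lefamulin median was -0.043 without control 1, -0.11 without lefamulin 3 and 0.071 with no filter on low counts. Without tiamulin 2 it had 1 higher and 2 lower under lefamulin.

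Of 22 genes of lipoprotein assembly and secretion 20 were tested, with 3 higher and 1 lower under lefamulin and 5 higher and 2 lower under tiamulin, where 13.1% and 16.4% of all tested genes were called. Without tiamulin 2 there were 6 higher and 3 lower under each drug, where 24.9% and 23.1% of all tested genes were called. Without control 2 or control 3 there was 1 lower under tiamulin. The medians were 0.077 and 0.083, and the tiamulin median was 0.052 without control 3. Dgat2, which makes the triglyceride that Mttp transfers, rose by 1.21 in log2 under lefamulin (adjusted p = 4.21e-04) and 0.70 under tiamulin (adjusted p = 0.0161, lost without control 1 or tiamulin 1, up to 0.0615). Hspa5, the endoplasmic reticulum chaperone BiP, rose by 0.67 and 0.33 (adjusted p = 6.42e-07 and 2.36e-04) and was lower under tiamulin than under lefamulin (-0.33, adjusted p = 0.00133). Apobec1, the editing enzyme that turns the Apob transcript into the short Apob form, rose under tiamulin from 61.8 ± 3.43 to 85.2 ± 0.480 CPM (0.46, adjusted p = 4.16e-04). Under lefamulin it stood at 69.9 ± 5.32 CPM (0.18, adjusted p = 0.115), called without tiamulin 2 (0.0336). Sort1, a sorting receptor that binds Apob, rose under tiamulin (0.37, adjusted p = 0.00264), and its value under lefamulin was 0.23 (adjusted p = 0.0547, called without tiamulin 1 or 2). P4hb, protein disulfide isomerase and the small subunit of the Mttp complex, fell under tiamulin (-0.25, adjusted p = 0.00625), and its value under lefamulin was -0.15 (adjusted p = 0.0885, called without tiamulin 2). It was not among the genes named by rule and was chosen after its values were seen.

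Of 15 receptors and uptake genes 12 were tested, with 2 higher and 1 lower under lefamulin and 3 higher and 1 lower under tiamulin, where 13.1% and 16.4% of all tested genes were called. The medians were 0.012 and 0.12, and with single libraries left out they ranged from -0.023 (lefamulin 1) to 0.097 (control 1) and from 0.0027 (tiamulin 2) to 0.16 (control 1). Under lefamulin there were 1 higher and 0 lower without any 1 control or lefamulin library, where 6.69% to 9.6% of all tested genes were called. There were 2 and 0 without tiamulin 1, and 4 and 1 without tiamulin 2, where 11.8% and 24.9% of all tested genes were called. Under tiamulin there were 0 lower without control 1, control 3, tiamulin 1 or tiamulin 3. There were 2 lower without tiamulin 2, where 23.1% of all tested genes were called. Vldlr, a receptor that binds Apoe, went from 39.8 ± 3.70 to 47.4 ± 2.88 and 59.1 ± 0.817 CPM and passed under tiamulin (0.57, adjusted p = 2.33e-04) but not under lefamulin (0.25, adjusted p = 0.0537, called without tiamulin 2). Lrp8, another receptor of Apoe, rose by 0.36 and 0.25 (adjusted p = 0.00540 and 0.0328). Stab1, a scavenger receptor, was the lower gene, by -0.43 and -0.49 (adjusted p = 0.0426 and 0.0180). The calls on Lrp8 under tiamulin and Stab1 under both drugs were lost when single libraries were left out, with adjusted p up to 0.144, 0.140 and 0.0717.

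Of 17 lipases, acyltransferases, transfer and efflux genes 13 were tested, with 2 higher and 2 lower under lefamulin and 3 higher and 2 lower under tiamulin, where 13.1% and 16.4% of all tested genes were called. The medians were 0.086 and 0.023, and reached 0.17 without control 1 and 0.12 without tiamulin 3. There was 1 higher under lefamulin without lefamulin 3, and 1 higher under tiamulin without control 1 or control 2. The sterol exporters that hand cholesterol to Apoa1, Apoe and high-density lipoprotein fell furthest. Abca1 had 90.3 ± 5.91 CPM in control, 11.7 ± 2.31 under lefamulin and 6.77 ± 0.765 under tiamulin (-2.95 and -3.74, adjusted p = 3.55e-09 and 6.44e-10). Abcg1, which loads cholesterol onto high-density lipoprotein, also fell (-1.33 and -1.60, adjusted p = 0.00825 and 0.00207). Soat2, which esterifies cholesterol for packing into Apob particles, rose by 1.15 and 1.28 (adjusted p = 0.00166 and 5.05e-04). Lipg, endothelial lipase, rose under tiamulin (0.66, adjusted p = 0.0177) and had 0.54 under lefamulin (adjusted p = 0.0541, called without tiamulin 2). The tiamulin call was lost without control 1, control 2 or tiamulin 2 (adjusted p up to 0.0668).

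Of 33 transcription factors that act on apolipoprotein genes 31 were tested, with 2 higher and 7 lower under lefamulin and 6 higher and 5 lower under tiamulin. Of all tested genes 7.09% were higher and 6% lower under lefamulin, and 9.08% higher and 7.34% lower under tiamulin. The medians were -0.17 and 0.0047. The first was -0.039 without control 1, and the other was -0.084 without tiamulin 2, -0.046 without control 2 and 0.064 without tiamulin 3. Without tiamulin 2 the counts were 4 higher and 14 lower, and 6 higher and 10 lower, where 24.9% and 23.1% of all tested genes were called. With any other single library left out they were 1 to 2 higher and 4 to 8 lower under lefamulin, and 3 to 5 higher and 3 to 4 lower under tiamulin. Onecut1 (HNF6) fell under both drugs (-0.94 and -0.68), as did Cebpa (-0.70 and -0.80) and Nr5a2, also called LRH-1 (-0.57 and -0.77), with the highest adjusted p of these 6 values at 0.00166 (edgeR). Srebf1, which drives lipogenic genes, fell too (-0.56 and -0.46, adjusted p = 0.0114 and 0.0249), and its tiamulin call was lost without control 1, control 3, tiamulin 1 or tiamulin 3 (up to 0.0890).

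Of 29 other proteins that hepatocytes secrete 11 were tested, with 1 higher and 5 lower under lefamulin, 0 higher and 7 lower under tiamulin, and 0 higher and 4 lower under tiamulin against lefamulin. Of all tested genes 6%, 7.34% and 2.05% were lower in these comparisons. The medians were -0.24, -0.50 and -0.18. Leaving out control 3, lefamulin 2 or lefamulin 3 gave 2 lower genes under lefamulin, and leaving out control 1 or lefamulin 1 gave 3. Leaving out tiamulin 2 gave 8, where 24.9% of all tested genes were called. Under tiamulin there were 6 to 7 lower genes with single libraries left out. Between the drugs there were 1 without lefamulin 2, 2 without lefamulin 1 or tiamulin 1, and 6 without tiamulin 2, where 8.79% of all tested genes were called. C3, the central complement component, fell from 279 ± 18.5 to 150.0 ± 12.98 and 133 ± 17.0 CPM (-0.90 and -1.07, adjusted p = 1.42e-05 and 1.95e-06). Itih2, a hyaluronan-binding plasma protein, fell (-0.62 and -0.57, adjusted p = 9.06e-06 and 1.58e-05). Hpx, the haem carrier, fell (-0.27 and -0.68, adjusted p = 0.0242 and 2.79e-05), and its lefamulin call was lost without control 1, control 3 or any 1 lefamulin library (up to 0.115). Hp, haptoglobin, fell (-1.39 and -1.18, adjusted p = 0.0213 and 0.0348) on 111 counts in all 9 libraries, and both calls were lost when single control or treated libraries were left out (adjusted p up to 0.0903 and 0.125). Alb, serum albumin, fell under both drugs (-0.24 and -0.50, adjusted p = 0.0166 and 7.56e-05), with the lefamulin call lost without control 3, lefamulin 2 or lefamulin 3 (up to 0.111). Afp, alpha-fetoprotein, fell under tiamulin (-0.81, adjusted p = 5.45e-07) and had -0.12 under lefamulin (adjusted p = 0.172, called without tiamulin 2). Trf, transferrin, went the other way and rose under lefamulin (0.27, adjusted p = 0.00465), with 0.079 under tiamulin (adjusted p = 0.370). Rbp4, the retinol carrier, had -0.080 and -0.11 (adjusted p = 0.449 and 0.284) and Gc, the vitamin D carrier, 0.044 and 0.084 (adjusted p = 0.799 and 0.577). Alb, Afp, Trf, Rbp4 and Gc were chosen after their values were seen.

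**Figure D4:**
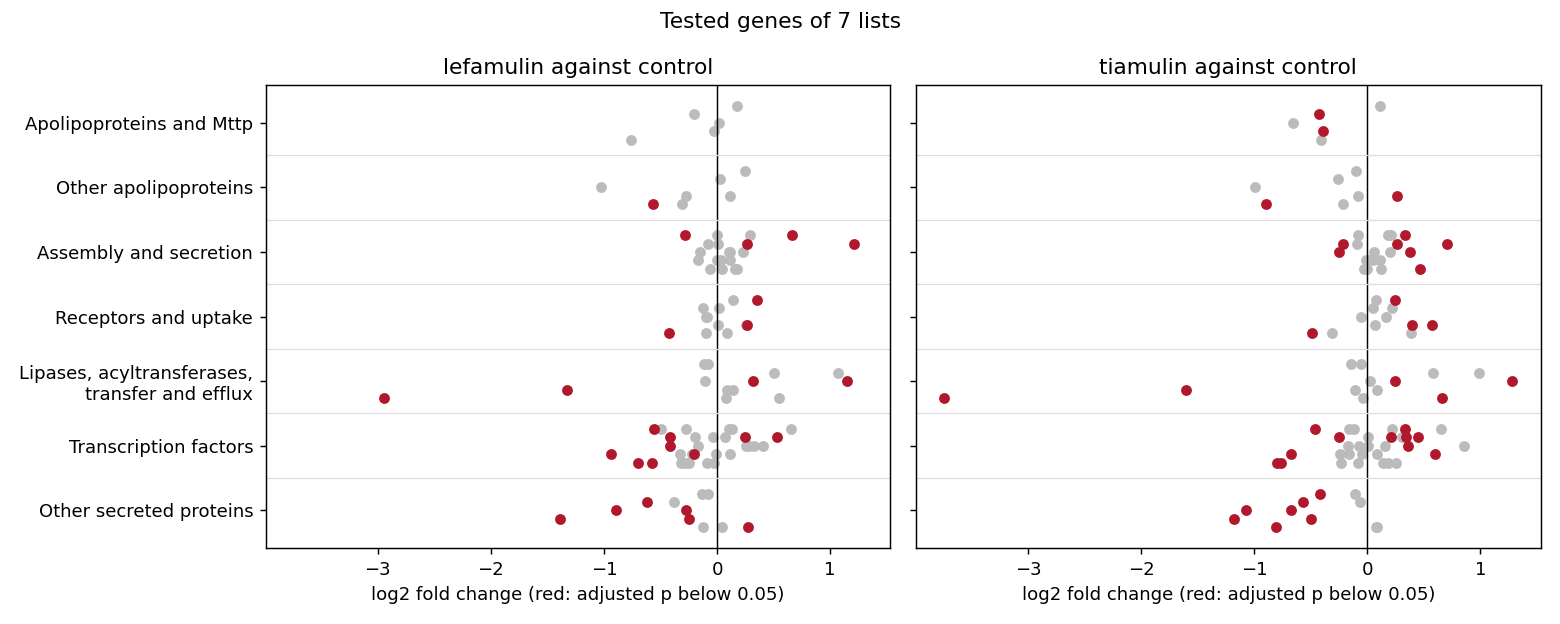
Log2(fold change) against control (horizontal axes) of every tested gene in 7 lists, lefamulin on the left and tiamulin on the right, with genes called at an adjusted p below 0.05 in red and the rest in grey. Among the other secreted proteins Trf and Gc lie to the right of 0 in both panels and the rest to the left, and Abca1 is the leftmost point. Receptors hold 2 and 3 higher calls, where 7.09% and 9.08% of all tested genes were higher, and 1 lower call in each panel.

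Some marker lists differed between the groups. The summed FPKM of the 13 hepatocyte markers, mostly Krt18 and Krt8, was 1509 to 1649 in control, 1467 to 1529 under lefamulin and 1677 to 2038 under tiamulin, so that lefamulin overlapped control. That of the 6 fibroblast markers, almost all Dcn, was 252 to 266, 192 to 201 and 177 to 191, and that of the 7 blood cell markers, mostly Cd68, was 7.04 to 7.68, 8.61 to 13.7 and 11.9 to 16.5. The 4 endothelial markers summed to 0.198 to 0.267, 0.402 to 0.628 and 0.479 to 0.723. The 5 cholangiocyte markers, at 29.6 to 36.8, 35.4 to 41.0 and 32.8 to 40.8, overlapped between the groups, and the 5 intestinal markers, at 56.9 to 58.7, 52.5 to 55.0 and 50.1 to 62.2, were lower than control in the lefamulin libraries and overlapped control in the tiamulin libraries. Their part in the levels of Apoe and Apob was not tested.

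The genes lie in 2 clusters and on 5 other chromosomes. In the positions of the deposited tables, Apoc1 (19423406 to 19426585) and Apoe (19430034 to 19433113) lie 3449 bases apart on the minus strand of chromosome 7, next to Apoc4, Apoc2 and Apoc2l. Apoa1, Apoc3 and Apoa4 lie side by side on chromosome 9. The submitters' processing notes name mm10, but 0 of the 10 genes, and 2.85% of 52088 nuclear genes compared, had their GRCm38 start and end, so the build of these positions is not settled.

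Among 11 protein-coding neighbours within 100 kb of Apoe, 9 were tested, with 0 higher and 3 lower under lefamulin and 0 higher and 2 lower under tiamulin, where 6% and 7.34% of all tested genes were lower. Apoc4, 14630 bases away, and Bcam, a laminin receptor 56943 bases away on the other side, were lower under both drugs, with Bcam at -0.67 and -0.66 (adjusted p = 2.43e-04 and 2.25e-04). Relb, a NF-kB subunit, was lower under lefamulin (-0.51, adjusted p = 0.00313), with -0.064 under tiamulin (adjusted p = 0.709). Tomm40, a subunit of the mitochondrial import pore 2125 bases from Apoe, had -0.022 and -0.0039 (adjusted p = 0.919 and 0.987). Apoc4 and Bcam were each separated from Apoe by at least 1 gene that did not pass the test. Around Apoa1, 7 neighbours held 3 tested genes, of which Zpr1 was higher under tiamulin (0.26, adjusted p = 0.0370), where 9.08% of all tested genes were higher, and none was called under lefamulin. The Zpr1 call was lost without any 1 control library, lefamulin library or tiamulin 2 (up to 0.134), and without tiamulin 2 it passed under lefamulin.

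**Figure D5:**
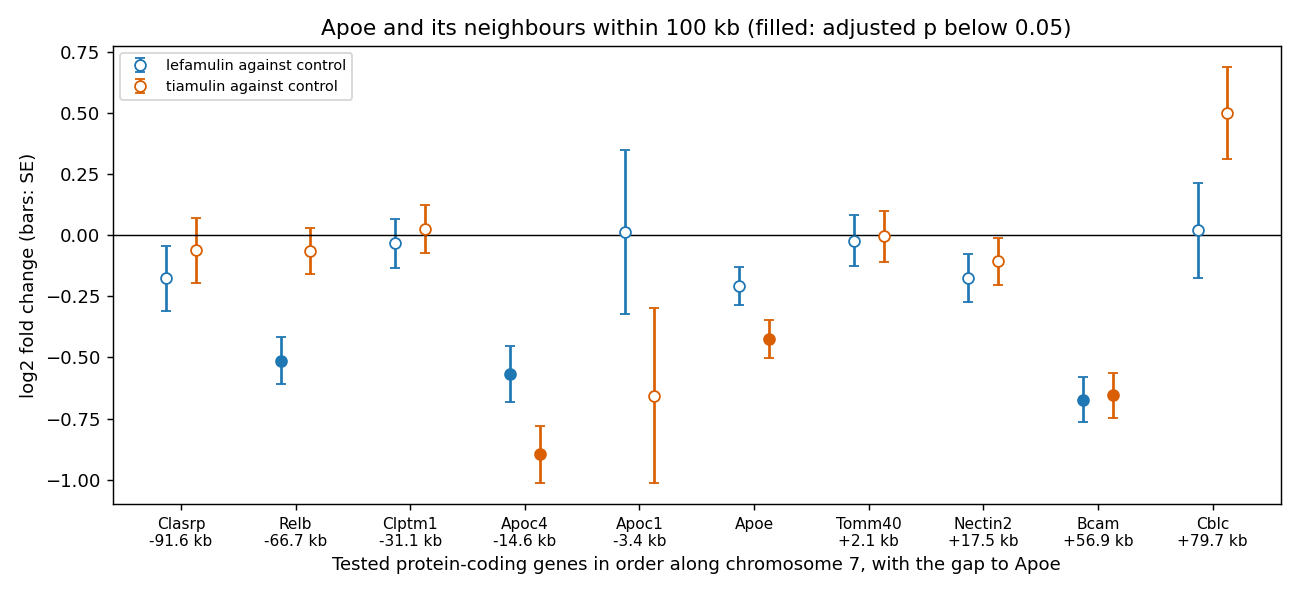
Log2(fold change) against control (vertical axis, bars show the SE) of Apoe and the 9 tested protein-coding genes within 100 kb, in their order along chromosome 7 with the gap to Apoe in kb. Apoc4 and Bcam are lower under both drugs, and Tomm40, nearest to Apoe, has -0.022 and -0.0039.

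Likeness over the 9 libraries was taken for the gene of the group with the largest mean change over the drugs, which was Apoa2. By Pearson's correlation of log2(CPM + 0.5), the 5 of 11799 protein-coding genes most like it were Gins4 (r = 0.923), Rab12 (0.909), Ifih1 (0.892), Ucn2 (0.888) and Zmym1 (0.882). Apoa2 had only 8 to 40 counts per library, and the highest of so many correlations over 9 points is a description.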

How the data were processed

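Hepa1-6 libraries, 3 per group, were grouped by their labels. The submitters' processing notes name CASAVA 1.8, fastp, HISAT2 2.0.5, featureCounts 1.5.0-p3, DESeq2 1.20.0 and mm10. The authors deposited raw read counts per gene and FPKM values, which are those counts divided by gene length and a library total. The authors' fold changes and p-values were not used. TMM normalization and the robust quasi-likelihood test of edgeR 4.0.16 (R 4.3.3) were applied to the counts after filterByExpr, with group as the sole factor, and FPKM were used to compare levels between genes, for ratios and marker sums, and in limma as an alternative. On simulated counts of 14263 genes the fit recovered 86 (tiamulin) and 90 (lefamulin) of 100 changes of 1.5-fold, with 14 and 11 false calls. Smaller changes were not simulated. The changes were placed only in genes with more counts than Apoa2 and Apoc1, so recovery at their levels was not simulated. Alternatives were DESeq2 1.42.0, its size factors in edgeR, no filter, the compared groups alone, the replicate number as a block, offsets for GC content and length, limma 3.58.1 on log2 FPKM, and leaving out each library. GC content came from GENCODE M21 and was known for 14242 of 14510 tested genes. Named genes were the 10 members and, from each list, up to 4 called genes with the largest mean change. Items withheld from this text are not reported here. The members and lists were chosen with earlier results of these data known.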

Additional observations from a re-analysis of the deposited data

Results flagged for a closer look

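The change in Apob differed between the drugs by a direct test. Tiamulin minus lefamulin gave a log2(fold change) of -0.365 (adjusted p = 0.0152 by edgeR), with all 3 tiamulin libraries below all 3 lefamulin libraries. Against control Apob had -0.39 under tiamulin and -0.026 under lefamulin. The call was lost without lefamulin 2 or lefamulin 3.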

How the results depend on the processing

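The tiamulin call on Apoe and Apob against control stayed at 2 genes in every alternative, including each library left out (2 to 2). Under lefamulin the count against control went from 0 to 1, Apoe, with no filter on low counts, with the compared groups alone and with offsets correcting for GC content and length, and was 0 to 1 with single libraries left out. Between the drugs the count went from 1 to 2 with no filter and with the offsets, and to 0 with limma on log2(FPKM + 1) and log2(FPKM + 0.1), and was 0 to 2 with single libraries left out. The cause was not tested. Of 252 alternative values for single genes 235 kept their direction and side of the threshold, 7 passed newly, 4 no longer passed and 6 changed sign, none of them called. The 6 were under lefamulin, where Apob became 0.0082 with the offsets, 0.0079 without control 3 and 0.059 without lefamulin 1, and Apoc1 became -0.0030 with the offsets, -0.099 without control 1 and -0.048 without lefamulin 3. With single libraries left out they ranged from -0.080 to 0.059 and from -0.099 to 0.14. Over all tested genes the calls were 1900, 2383 and 711 for lefamulin, tiamulin and between the drugs. They became 3510 (lefamulin) and 280 (between the drugs) with the compared groups alone, 3407, 3904 and 1904 with the offsets, 1271 between the drugs with no filter, and 443 and 444 with limma. Without tiamulin 2 they were 3708, 3433 and 1309. Leaving out control 1, control 3 or a lefamulin library gave 993 to 1155 under lefamulin, leaving out control 3 gave 1462 under tiamulin, and leaving out control 3 or a lefamulin library gave 204 to 419 between the drugs. The replicate numbers did not pair the samples, since same-numbered libraries correlated between -0.534 and 0.065 in their deviations from the group mean. Some libraries with different numbers correlated more, such as control 1 with tiamulin 2 (r = 0.554) and control 2 with tiamulin 3 (0.433). Others went the opposite way, such as control 1 with tiamulin 3 (-0.483). The source of these shared deviations was not tested. With the replicate number as a block the calls were 1304, 1811 and 263 over all genes and 0, 2 and 1 among the members. Apoa2, Apoc1 and the 5 untested genes had low counts, and Apoa2 also varied widely between libraries. DESeq2 gave no adjusted p for some of these genes.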

Other observations

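Of the 31 tested transcription factors 3, Rora, Foxo3 and Rxrb, were called between the drugs, all higher under tiamulin, where 4.9% of all tested genes were called. They were chosen after their values were seen. Rora, an orphan receptor known to act on apolipoprotein genes, had 19.5 CPM in control, 21.2 under lefamulin and 29.5 under tiamulin, and was higher under tiamulin than under lefamulin (log2(fold change) 0.48, adjusted p = 0.00716 by edgeR), a call that was lost with limma on log2 FPKM (adjusted p up to 0.0554). Foxo3 was higher under tiamulin than under control (0.34, adjusted p = 7.75e-04) and than under lefamulin (0.38, adjusted p = 0.00191), and had -0.040 under lefamulin against control (adjusted p = 0.696). Rxrb had 56.4, 42.3 and 56.5 CPM in control, lefamulin and tiamulin, and was lower under lefamulin (-0.42, adjusted p = 0.00965) and higher under tiamulin than under lefamulin (0.42, adjusted p = 0.0227). The first Rxrb call was lost without control 3 or lefamulin 3 (adjusted p up to 0.0591) and the other without any 1 lefamulin library (up to 0.113). Hnf4a, the hepatocyte nuclear receptor that activates many apolipoprotein promoters, had -0.21 under lefamulin (adjusted p = 0.0374, lost without any 1 control or lefamulin library) and -0.051 under tiamulin (adjusted p = 0.627), where it was called without tiamulin 2 (adjusted p = 0.0466) and ranged from -0.12 to 0.0030 with single libraries left out.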
